A study of Homo sapiens with 42 samples.

Results

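The genes described here are 9 interferon-stimulated genes, BST2, IFI27, IFI6, IFI35, ISG15, IRF7, IRF9, IFIT1 and IFITM3, chosen by name out of the 42145 genes with an entry in the deposited tables. Messenger RNA 3′ ends of MDA-MB-231, a triple-negative human breast cancer cell line, were sequenced with the QuantSeq REV kit, in which each read marks 1 transcript end. The 42 libraries form 14 groups of 3 in 3 tables. The first table holds nuclear and cytoplasmic RNA of LM2 cells, labelled as highly metastatic to the lungs, and of Par cells, labelled as poorly metastatic. The second holds the same fractions of poorly metastatic cells carrying an HNRNPC knockdown (gHNRNPC) or a control (gCTRL), made by a method that the labels do not state. The third holds total RNA of LM2 cells that received either 3 µM T4, a compound known here by this code only, or its vehicle DMSO for 6 h, and were harvested at 6 h or, after a media change, at 24 h or 72 h. The labels do not say that the replicates came from separate cultures, and the p-values therefore cover the sample-to-sample spread alone, which may be technical.

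Interferons are secreted proteins that bind receptors on the cell surface and, through the JAK kinases and the STAT proteins, switch on a large set of genes. For type I interferons, IRF9 is the DNA-binding subunit of the complex ISGF3, which binds a DNA element called the interferon-stimulated response element (ISRE). Some of these genes are also driven without interferon, and a standing low level of them is common in cancer cell lines. HNRNPC is a nuclear RNA-binding protein that keeps Alu repeats from being spliced into transcripts as exons. RNA with paired Alu repeats can form the double-stranded RNA that IFIH1 (MDA5) and EIF2AK2 (PKR) sense, and sensing by IFIH1 leads to interferon production, which is why the knockdown was examined for these genes.

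The promoters were searched for a form of the ISRE. The members were chosen as interferon-stimulated genes, so its presence in them is not independent of that choice. In RefSeq (GRCh38.p14), 8 of the 9 members were matched by symbol in the table used here, IRF7 being named only. The letters GAAA, any 2 bases and GAAA again, a core form of the ISRE, were searched on both strands in the 250 bases upstream of each start, overlapping matches being counted. They were found in 6 members, BST2, IFI27, IFI6, ISG15, IFIT1 and IFITM3, and in 1061 of all 35116 such windows (3.02%). These counts differ in unit, since a gene such as IFI27 can have more than 1 window. No match was found in the windows of IFI35 and IRF9, which says only that these letters are not in that stretch. The windows of the 4 members with a match whose RNA passed a test in any comparison of cell lines, knockdown or treatment are printed 5′ to 3′ along the gene, with the matching letters in capitals.
BST2 promoter, chr19:17405631-17405880, minus strand: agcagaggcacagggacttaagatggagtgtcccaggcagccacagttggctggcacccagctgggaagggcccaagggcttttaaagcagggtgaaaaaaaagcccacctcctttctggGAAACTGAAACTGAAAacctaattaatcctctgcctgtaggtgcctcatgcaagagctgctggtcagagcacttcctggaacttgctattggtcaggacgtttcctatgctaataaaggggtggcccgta
IFI27 promoter, chr14:94110486-94110735, plus strand: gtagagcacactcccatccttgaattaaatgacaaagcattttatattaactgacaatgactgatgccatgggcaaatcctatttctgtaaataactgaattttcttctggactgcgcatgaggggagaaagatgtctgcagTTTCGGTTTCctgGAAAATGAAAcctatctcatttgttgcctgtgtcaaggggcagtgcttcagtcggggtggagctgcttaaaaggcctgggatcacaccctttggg
ISG15 promoter, chr1:1013247-1013496, plus strand: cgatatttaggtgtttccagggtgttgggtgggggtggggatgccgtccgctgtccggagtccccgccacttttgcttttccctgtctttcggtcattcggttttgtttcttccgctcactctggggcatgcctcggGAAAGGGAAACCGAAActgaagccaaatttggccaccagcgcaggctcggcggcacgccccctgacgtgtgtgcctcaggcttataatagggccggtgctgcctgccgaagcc
IFIT1 promoter, chr10:89392373-89392622, plus strand: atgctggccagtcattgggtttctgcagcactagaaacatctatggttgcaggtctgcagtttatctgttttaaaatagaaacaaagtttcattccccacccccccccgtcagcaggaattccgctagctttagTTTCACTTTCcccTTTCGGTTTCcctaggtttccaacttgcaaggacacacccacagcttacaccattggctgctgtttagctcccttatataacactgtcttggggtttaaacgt
In BST2 and ISG15 the matches overlap and form 1 run, and both lie on the strand of the gene. IFIT1 carries both of its matches on the other strand, and IFI27 has a match on each strand. All of these matches begin between 95 and 130 bases upstream of the start.

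The members were measured to very different depths. Libraries held 0.798 to 2.30 M estimated reads. Over all 42 libraries ISG15 had 15938 reads, BST2 had 10126, IFIT1 had 1742, IFI35 had 1515, IRF7 had 371, IFI27 had 353, IFI6 had 238 and IRF9 had 17. IFITM3, which blocks the entry of viruses through endosomes, had 0 reads in all 42 libraries on its only entry, 1 transcript end. For that end this allows up to 1.27 to 6.79 counts per M reads (CPM) in a library (3 reads, counting error only). It sets no limit on IFITM3 RNA with another end. Its close relative IFITM2 had 4569 reads in the cell-line libraries, 8245 in the knockdown libraries and 3710 in the libraries with T4 or DMSO. How the authors' counting shared reads between the pair was not tested. BST2, IFI35, ISG15 and IFIT1 had enough reads to be tested in all 3 tables, IFI27 and IRF7 for cell line and knockdown, IFI6 for knockdown alone, and IRF9 and IFITM3 in none.

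The 8 members with reads had nearly all of them on a single 3′ end each, so no change of poly(A) site use could be tested for any of them. The transcript end of BST2 held 99.9% of its reads. All reads of ISG15, IFI35, IRF7 and IFI6 fell on 1 protein-coding transcript end each, and those of IFI27 and IRF9 on an end annotated as a retained-intron transcript. ISG15, IFI6 and IFI27, and also IFITM3, had only 1 entry each, so no other end of these genes could be counted. For IFIT1, 99.8% of the reads came from a position entry that the tables list with IFIT1. Of all position entries, 9.79% fall within the GRCh38 bounds of the transcript above them; that of IFIT1 does not, and the reason was not tested, so the gene name of these reads rests on the listing. LIPA overlaps IFIT1 on the opposite strand, and AL136295.5 overlaps IRF9 on the same strand.

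Markers of the cell line were present: VIM, CD44, FN1 and AXL had 7334 to 36624 reads, while ESR1 had 2, PGR 0 and CDH1 13. The defining markers of lymphocytes, endothelium and fibroblasts were at or near 0 (PTPRC 7 reads, CD3E 0, CDH5 0, DCN 0), while CD68 had 1310 reads and COL1A1 had 775. The nuclear libraries numbered 2 in LM2 and Par cells stood apart in composition (trimmed-mean scaling factors of 0.721 and 0.731, other libraries of the table ranging from 0.962 to 1.22), and so did T4 library 3 at 6 h (0.499, against 0.843 to 1.45). Levels below are CPM after this scaling within each table. They are not compared between tables, except that the correlations over the 14 groups pool all 3. In such bulk RNA, fewer cells with a transcript and less of it per cell cannot be told apart. Changes are log2 ratios from edgeR's quasi-likelihood test, with p-values adjusted over all genes tested by the Benjamini-Hochberg method and a threshold of 0.05. The test gives no SE. The SE after each ± is the size of the log2 ratio divided by the square root of the test's F statistic, so it is approximate.

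In LM2 cells, BST2 and IFI27 were far lower than in Par cells, while the other tested members differed less or not beyond the threshold. BST2 encodes tetherin, a membrane protein that holds budding enveloped viruses at the cell surface, and lies at chr19:17402939-17405648 on the minus strand (GRCh38, GENCODE 29, as for all gene positions given here). In the cytoplasm it stood at 26.1, 41.1 and 38.6 CPM in LM2 cells, against 235, 232 and 217 in Par cells. In nuclei it stood at 27.1, 44.0 and 44.2 in LM2 cells, against 325, 313 and 290 in Par cells. Every LM2 library lay below every Par library in both fractions. The log2 change was −2.69 ± 0.23 in the cytoplasm (adjusted p = 0.000149) and −3.00 ± 0.23 in nuclei (adjusted p = 9.66e-05), that is 6.45-fold and 8.02-fold lower in LM2 cells.

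IFI27, a small membrane protein and one of the genes most responsive to type I interferon (chr14:94104836-94116698, plus strand), was nearly silent in LM2 cells. The LM2 cytoplasm libraries held 0, 1 and 2 of its reads, against 26, 24 and 20 in the Par cytoplasm libraries. The LM2 nuclei held 0, 1 and 4 reads, against 8, 11 and 13 in Par nuclei. The groups did not overlap in either fraction. The decrease passed the threshold in the cytoplasm (18.5-fold on the scaled reads, with a counting interval of 6.06 to 91.7, and adjusted p = 0.00707) and missed it in nuclei (−2.59 ± 0.68, adjusted p = 0.0813). DESeq2 called it in nuclei too (adjusted p = 0.0416).

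**Figure D1:**
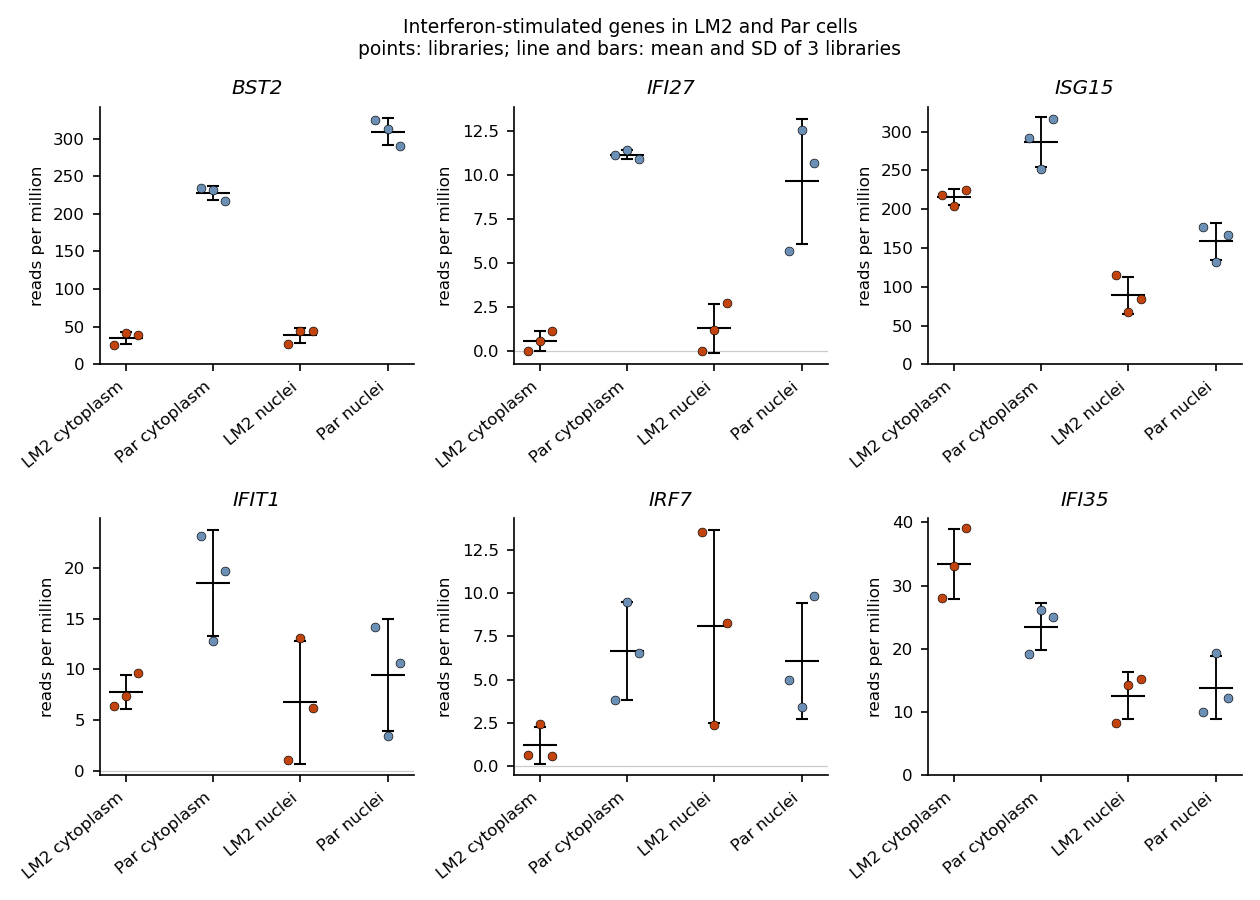
CPM (scaled within the table) of the 6 members tested in LM2 and Par cells, with each point a library and the line and bars the mean and SD of 3. The LM2 points of BST2 and IFI27 lie below all Par points in both fractions, while those of IFI35 lie above the Par points in the cytoplasm and among them in nuclei.

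ISG15 encodes a ubiquitin-like protein that is joined to other proteins or secreted (chr1:1001138-1014540, plus strand). It stood at 218, 204 and 225 CPM in LM2 cytoplasm, against 292, 252 and 316 in Par cytoplasm, and at 115, 67.8 and 84.2 in LM2 nuclei, against 177, 131 and 167 in Par nuclei. LM2 libraries were below Par libraries in both fractions without overlap, yet neither difference passed the threshold (−0.41 ± 0.20, adjusted p = 0.219 in the cytoplasm, and −0.83 ± 0.21, adjusted p = 0.0674 in nuclei). The nuclear difference passed without LM2 nuclei library 1 (adjusted p = 0.0187). The cytoplasmic difference passed in a fit of the LM2 and Par cytoplasm libraries alone (adjusted p = 0.00941).

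IFIT1 binds viral RNA that lacks the marks of the cell's own messenger RNA (chr10:89392546-89406486, plus strand). Its level was 6.37, 7.36 and 9.64 CPM in LM2 cytoplasm, against 23.1, 12.8 and 19.7 in Par cytoplasm, with no overlap and a log2 change of −1.24 ± 0.55 (adjusted p = 0.176). In the fit of the cytoplasm libraries alone the adjusted p was 0.00783, and without both nuclear libraries numbered 2 it was 0.0349. In nuclei the groups overlapped (1.04, 13.1 and 6.21 in LM2 cells, against 14.2, 3.43 and 10.7 in Par cells).

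IRF7 is the transcription factor that amplifies type I interferon production (chr11:612553-615999, minus strand). It had 1, 4 and 1 reads in LM2 cytoplasm, against 9, 20 and 12 in Par cytoplasm, again without overlap (−2.37 ± 0.73, adjusted p = 0.0622, 0.0212 without both nuclear libraries numbered 2 and 0.0418 without that of LM2 cells alone). In nuclei the groups overlapped, with 13, 2 and 12 reads in LM2 cells, against 7, 3 and 12 in Par cells. IFI35, a leucine-zipper protein that pairs with NMI (chr17:43006725-43014456, plus strand), was the only tested member with a higher mean in LM2 cytoplasm (28.0, 33.1 and 39.1 CPM, against 19.2, 26.1 and 25.1 in Par cytoplasm), and the difference of 0.51 ± 0.28 missed the threshold (adjusted p = 0.268). IFI6 had at most 5 reads in any library of this table and was not tested.

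Of the 6 members tested, 0 rose and 2 fell in LM2 cytoplasm, where 10.9% of all 8541 genes tested were called, 3.99% as higher and 6.93% as lower. Over all genes 341 were higher and 592 lower, and with median-of-ratios scaling 460 were higher and 384 lower. The members' median log2 change was −1.80, against −0.02 for all genes. In LM2 nuclei 0 rose and 1 fell, against 2.21% of all genes called (1.15% higher and 1.07% lower), with a median of −0.70 for the members and 0.01 for all genes. The difference between the 2 fractions in the LM2 effect passed the threshold for 0 of 6 members with edgeR, as for 0% of all genes, with 1 at an unadjusted p under 0.05 (IRF7) and 0 with DESeq2. The 2 fractions of BST2 and IFI27 thus gave changes in the same direction whose difference was not called (adjusted p = 0.845 for BST2 and 0.757 for IFI27).

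Few other genes of the pathway passed between the cell lines. Lists of 118 genes in all were used (5 lists), covering interferons, their receptors with JAK-STAT signalling, sensors of foreign nucleic acid, 60 other interferon-stimulated genes and antigen presentation. All 8 interferon genes on the list had 0 reads in every table. STAT2 had 4 reads in this table, below the filter. Of 55 listed genes tested, 1 rose and 2 fell in LM2 cytoplasm, where 10.9% of all genes were called. In LM2 nuclei 0 passed, where 2.21% of all genes were called. In the cytoplasm the median log2 change was −0.48 over 10 receptor and JAK-STAT genes and −0.41 over 26 other interferon-stimulated genes, against −0.02 for all genes. In the cytoplasm MAVS, the adaptor of the RNA sensors, lay between 597 and 654 CPM in LM2 cells and between 219 and 311 in Par cells, with a log2 change of 1.23 ± 0.30 (adjusted p = 0.0266 with edgeR). PSMB8, a subunit of the immunoproteasome, fell by 1.11 on the log2 scale (adjusted p = 0.0158). The MAVS call was lost without any 1 of the LM2 cytoplasm libraries or of Par cytoplasm libraries 1 and 2 (adjusted p up to 0.119). The PSMB8 call was lost with library totals (adjusted p = 0.0823) and without LM2 cytoplasm library 1 or 3 or Par cytoplasm library 2 (adjusted p up to 0.0789). Among 26 other interferon-stimulated genes tested, 0 passed in either direction in either fraction, while 4 fell in the fit of the cytoplasm libraries alone. In that fit 1275 of all 7601 genes tested were lower.

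After HNRNPC knockdown, IFIT1 and ISG15 fell in the cytoplasm and IRF7 rose there, while in nuclei IFI35 was the one member that passed. The target itself was reduced in every library. HNRNPC stood at 86.2, 112 and 99.0 CPM in gHNRNPC cytoplasm, against 545, 487 and 493 in gCTRL cytoplasm, and at 86.1, 116 and 90.9 in gHNRNPC nuclei, against 436, 527 and 626 in gCTRL nuclei. That is 5.12-fold lower in the cytoplasm (adjusted p = 1.58e-08) and 5.42-fold lower in nuclei (adjusted p = 1.2e-08).

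IFIT1 showed the clearest response of the members. Its cytoplasmic level was 52.8, 36.5 and 71.0 CPM with gHNRNPC, against 130, 145 and 94.2 with gCTRL. Its nuclear level was 30.4, 24.4 and 47.3 with gHNRNPC, against 56.6, 57.1 and 43.2 with gCTRL. The cytoplasmic groups did not overlap, and the 2.28-fold decrease (−1.19 ± 0.24, adjusted p = 0.00106) passed in all 20 alternative fits. The nuclear groups overlapped by 1 library, and the change of −0.61 ± 0.28 missed the threshold (adjusted p = 0.148).

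ISG15 stood at 525, 406 and 438 CPM in gHNRNPC cytoplasm, against 615, 818 and 631 in gCTRL cytoplasm. All gHNRNPC libraries were lower, by 1.51-fold (−0.59 ± 0.17, adjusted p = 0.0154). The call was lost without gCTRL cytoplasm library 2 (adjusted p = 0.0863), gHNRNPC cytoplasm library 2 (0.0638) or gHNRNPC cytoplasm library 3 (0.0725). In nuclei ISG15 was at 384, 315 and 344 with gHNRNPC, against 315, 332 and 335 with gCTRL, a change of 0.09 ± 0.18 that is smaller than its standard error. The difference between the fractions, 0.68 ± 0.25, had an unadjusted p of 0.011 and an adjusted p of 0.343.

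IRF7 had 12, 24 and 22 reads in gHNRNPC cytoplasm, against 6, 3 and 12 in gCTRL cytoplasm. In scaled CPM the groups did not overlap, with 6.46, 12.2 and 9.35 for gHNRNPC, against 3.24, 1.61 and 5.65 for gCTRL. The change was 1.37 ± 0.43 (adjusted p = 0.024). It missed the threshold without either of gCTRL cytoplasm libraries 1 and 2 (adjusted p = 0.0683 and 0.115) and without either of gHNRNPC cytoplasm libraries 2 and 3 (0.128 and 0.0585). IRF9, the DNA-binding subunit of ISGF3, had 0, 2 and 7 reads in gHNRNPC cytoplasm, against 1 read in each gCTRL cytoplasm library. That is 2.83-fold on the scaled reads, with a counting interval of 0.707 to 16.3. All IRF9 reads fell on the retained-intron end, which AL136295.5 overlaps on the same strand. Whether other IRF9 reads were counted under that gene was not tested, so these counts do not give the level of IRF9.

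**Figure D2:**
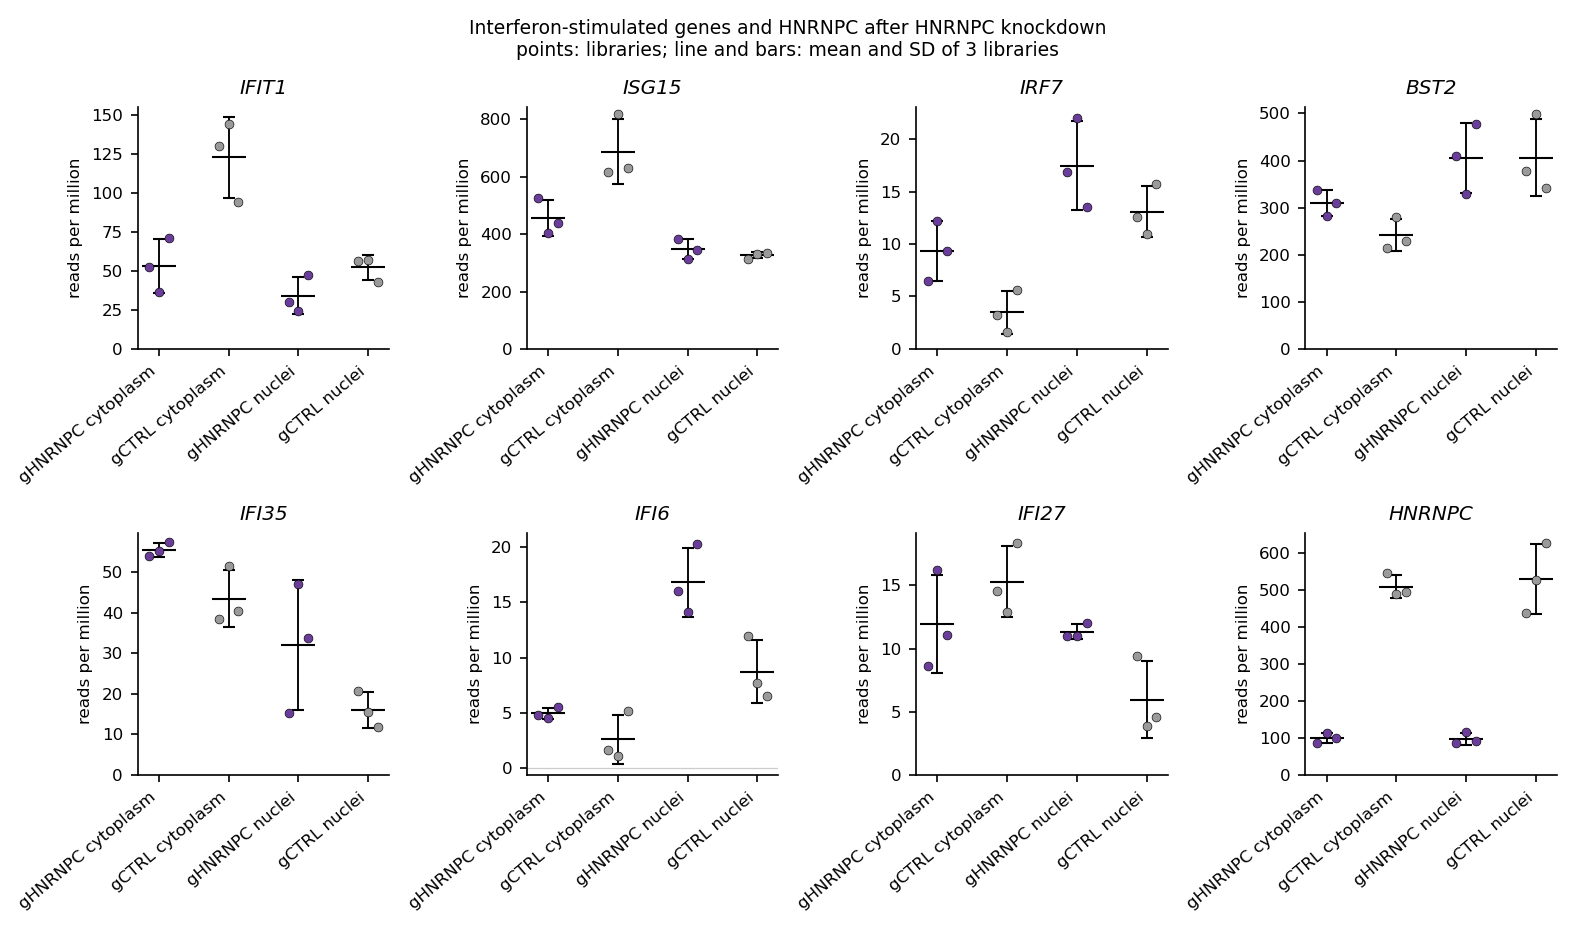
CPM (scaled within the table) of the 7 members tested, and of HNRNPC, after HNRNPC knockdown, with each point a library and the line and bars the mean and SD of 3. IFIT1 and ISG15 are lower in gHNRNPC than in gCTRL cytoplasm, IRF7 is higher there, and HNRNPC lies near 100 CPM in every gHNRNPC library.

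BST2, IFI6 and IFI27 passed in neither fraction. BST2 was at 338, 283 and 310 CPM in gHNRNPC cytoplasm, against 215, 279 and 230 in gCTRL cytoplasm, which do not overlap, but the change of 0.36 ± 0.19 missed the threshold (adjusted p = 0.168). With library totals in place of the trimmed-mean scaling it passed (adjusted p = 0.0343), a scaling under which the median log2 change of all genes was 0.15, against 0.01 in the test as reported. Nuclear BST2 averaged 406 ± 74.5 with gHNRNPC and 406 ± 82.4 with gCTRL (SD, n = 3 each).

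IFI35 stood at 15.2, 47.2 and 33.8 CPM in gHNRNPC nuclei, against 20.8, 15.4 and 11.8 in gCTRL nuclei, so the groups overlapped through gHNRNPC library 1. The change was 1.01 ± 0.32 (adjusted p = 0.036). It missed the threshold in 8 of 21 alternatives, among them the fits without gCTRL nuclei library 2 (adjusted p = 0.131) or 3 (0.133) and without gHNRNPC nuclei library 2 (0.296) or 3 (0.0911). In the cytoplasm IFI35 was at 53.9, 55.3 and 57.4 with gHNRNPC, against 38.4, 51.6 and 40.5 with gCTRL (0.36 ± 0.26, adjusted p = 0.345).

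IFI6, a small membrane protein known to restrain cell death, had 9, 9 and 13 reads in gHNRNPC cytoplasm, against 3, 2 and 11 in gCTRL cytoplasm. In nuclei it had 19, 18 and 27 reads with gHNRNPC, against 19, 12 and 10 with gCTRL. Neither difference passed (0.87 ± 0.52, adjusted p = 0.232 in the cytoplasm, and 0.94 ± 0.41, adjusted p = 0.134 in nuclei). Without gCTRL cytoplasm library 3 the cytoplasmic one passed (adjusted p = 0.041). IFI27 had 16, 32 and 26 reads in gHNRNPC cytoplasm, against 27, 24 and 39 in gCTRL cytoplasm, and 13, 14 and 16 in gHNRNPC nuclei, against 15, 6 and 7 in gCTRL nuclei. Neither IFI27 difference passed (adjusted p = 0.477 in the cytoplasm and 0.151 in nuclei).

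Of the 7 members tested, 1 rose and 2 fell in gHNRNPC cytoplasm, where 23.4% of all 9351 genes tested were called, 11.7% in each direction. Over all genes 1094 were higher and 1091 lower, and with library totals 1470 were higher and 803 lower. The members' median log2 change was 0.36, against 0.01 for all genes. In gHNRNPC nuclei 1 rose and 0 fell, against 14.1% of all genes called (8.43% higher and 5.71% lower), with a median of 0.42 for the members and 0.04 for all genes. With library totals the nuclear split over all genes was 560 higher and 722 lower, against 788 and 534 as reported. The nuclear count of 1 in 7 is near the share of all genes called. The difference between fractions in the knockdown effect passed for 0 of 7 members with edgeR, against 0.0214% of all genes, with 2 at an unadjusted p under 0.05 (ISG15 and IFI27) and 0 with DESeq2.

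Of 68 listed genes of the wider pathway tested, 12 rose and 6 fell in gHNRNPC cytoplasm, where 23.4% of all genes were called. In gHNRNPC nuclei 13 rose and 0 fell, where 14.1% of all genes were called. The 13 became 3 without gCTRL nuclei library 2, 4 without gHNRNPC nuclei library 2, 5 without gCTRL nuclei library 1, 7 without gHNRNPC nuclei library 3 and 8 without gHNRNPC nuclei library 1. Of 13 antigen-presentation genes tested, 8 rose and 1 fell in the cytoplasm and 8 rose and 0 fell in nuclei. Their median log2 changes were 0.77 and 0.71, against 0.01 and 0.04 for all genes. Over the alternatives the number that rose was 6 to 8 in the cytoplasm and 2 to 9 in nuclei, the lowest without gCTRL nuclei library 1.

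TAP1, which pumps peptides into the endoplasmic reticulum for class I molecules, averaged 24.3 ± 6.90 CPM in gHNRNPC cytoplasm and 5.45 ± 0.634 in gCTRL cytoplasm (SD, n = 3 each), a log2 change of 2.15 ± 0.31 (adjusted p = 1.92e-05). PSMB8 averaged 75.3 ± 12.8 with gHNRNPC and 33.0 ± 12.9 with gCTRL in the cytoplasm, and 99.6 ± 18.9 with gHNRNPC and 41.7 ± 6.00 with gCTRL in nuclei. It rose by a log2 of 1.18 in the cytoplasm (adjusted p = 0.00138) and of 1.26 in nuclei (adjusted p = 0.00139). TAP2, the partner of TAP1, had 24 reads in gHNRNPC cytoplasm and 1 in gCTRL cytoplasm, and 67 in gHNRNPC nuclei and 26 in gCTRL nuclei, and passed in both (adjusted p = 0.00143 and 0.011). The nuclear call was lost without gCTRL nuclei library 1 or 2 or gHNRNPC nuclei library 2 (adjusted p up to 0.0743).

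In nuclei HLA-B and HLA-C rose by log2 changes of 0.83 and 0.80 (adjusted p = 0.00553 and 0.00597). Both calls were lost without gCTRL nuclei library 1 or gHNRNPC nuclei library 2, and that of HLA-C without gCTRL nuclei library 2 (adjusted p up to 0.0837). These class I genes are near-identical and highly variable between people, and how the authors' counting divided their reads was not tested. IFI30, a lysosomal thiol reductase, rose by 1.86 ± 0.38 in the cytoplasm (adjusted p = 0.00109) and by 1.87 ± 0.25 in nuclei (adjusted p = 1.48e-05). IRF3, the transcription factor that the RNA sensors activate, rose by 0.91 ± 0.18 in the cytoplasm (adjusted p = 0.001). IKBKE, a kinase that activates IRF3 and IRF7, fell by 1.52 on the log2 scale there (adjusted p = 0.000221).

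Of the other interferon-stimulated genes, 1 rose and 2 fell out of 34 tested in the cytoplasm, where 23.4% of all genes were called. In nuclei 4 of these rose and 0 fell, where 14.1% of all genes were called. Leaving out 1 library gave 1 to 4 that rose and 1 to 4 that fell in the cytoplasm (4 rose without gCTRL cytoplasm library 3, and 4 fell without gHNRNPC nuclei library 2), and 1 to 4 that rose in nuclei (1 without gCTRL nuclei library 2). Of the sensors, 0 rose and 2 fell out of 10 tested in the cytoplasm and 0 passed in nuclei. The same shares of all genes called apply to them. All 8 interferon genes were at 0 reads in this table too, and MX1 had 94 reads.

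With T4, ISG15 was the only member of the 4 tested to pass the threshold, and it did so at 6 h. It stood at 88.5, 117 and 213 CPM in T4 cells at 6 h, against 64.4, 46.6 and 58.6 in DMSO cells. At 24 h it stood at 127, 118 and 106 in T4 cells, against 71.1, 81.9 and 66.01 in DMSO cells. At 72 h it stood at 136, 137 and 156 in T4 cells, against 102, 114 and 114 in DMSO cells. At each time every T4 library lay above every DMSO library.

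The ISG15 increase passed the threshold at 6 h (1.26 ± 0.25, adjusted p = 0.00251) and missed it at 24 h (0.68 ± 0.24, adjusted p = 0.109) and 72 h (0.38 ± 0.24, adjusted p = 0.706). The highest T4 value at 6 h belongs to the library that stood apart in composition, where 94 reads of ISG15 were counted, against 98 and 126 in the other T4 libraries. Without it the change at 6 h was 0.86 ± 0.18 (adjusted p = 0.00417) and the increase at 24 h passed (0.62 ± 0.16, adjusted p = 0.0168). With library totals in place of the trimmed-mean scaling the change at 6 h was 0.72 ± 0.23 (adjusted p = 0.0289), a scaling under which the median of all genes was −0.51, against −0.11 in the test as reported. In a fit of the 6 h libraries alone the call was lost (adjusted p = 0.0808). The change in the T4 effect from 6 h to 72 h, −0.88 ± 0.35, had an adjusted p of 0.112, and of 0.0381 without T4 library 1 at 6 h.

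**Figure D3:**
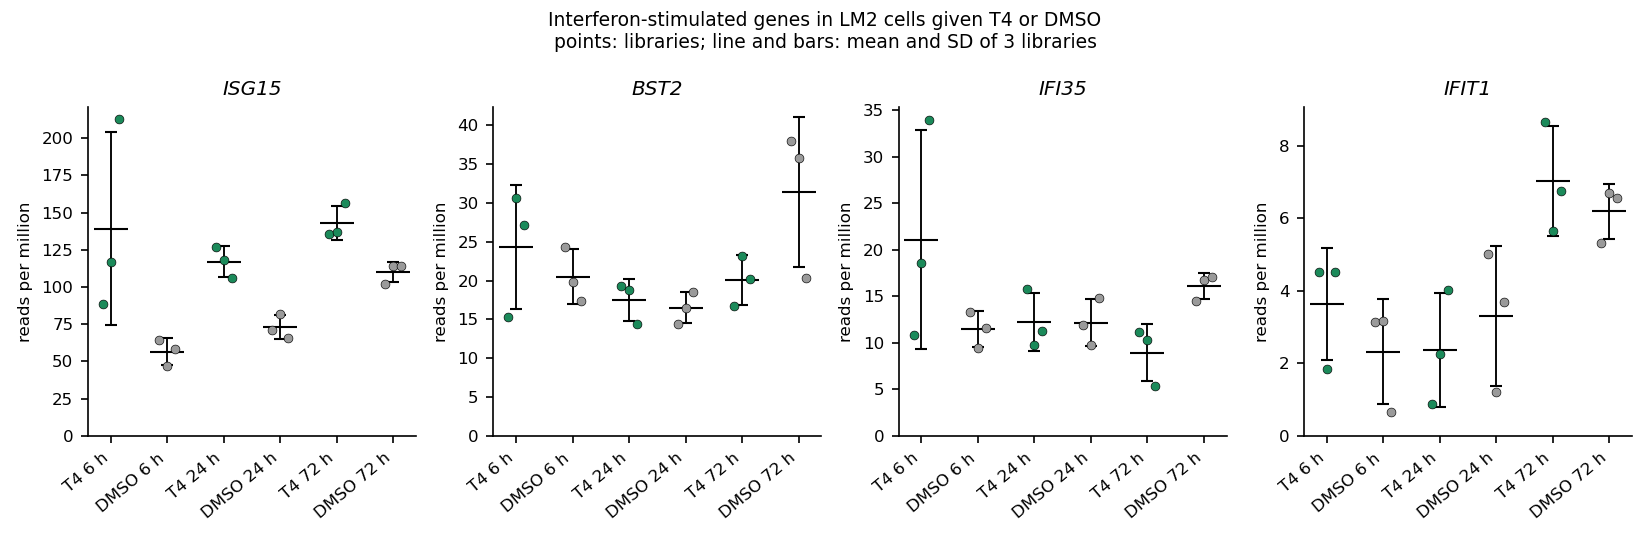
CPM (scaled within the table) of the 4 members tested in LM2 cells given T4 or DMSO and harvested at 6, 24 or 72 h, with each point a library and the line and bars the mean and SD of 3. ISG15 is higher in T4 than in DMSO cells at each time, and its DMSO level is higher at 72 h than at 6 h.

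ISG15 also differed with time in the vehicle alone. DMSO cells harvested at 72 h averaged 110 ± 6.98 CPM, and those harvested at 6 h averaged 56.6 ± 9.06 (SD, n = 3 each), without overlap, a log2 change of 0.96 ± 0.25 (adjusted p = 0.0325). The call was lost when any 1 of the 6 libraries of this pair was left out (adjusted p up to 0.164) or with no filter on low counts (0.0509). The DMSO libraries at 24 h averaged 73.0 ± 8.12, above those at 6 h without overlap, and that difference was not called (adjusted p = 0.769).

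The other members with T4 or DMSO had few reads, and none of the 3 tested passed. BST2 was at 15.4, 30.6 and 27.2 CPM in T4 cells at 6 h, against 24.4, 19.8 and 17.4 in DMSO cells, and at 16.7, 23.2 and 20.2 in T4 cells at 72 h, against 38.0, 35.8 and 20.3 in DMSO cells. The groups overlapped at each time. IFI35 was at 10.8, 18.5 and 33.9 in T4 cells at 6 h, against 13.4, 9.49 and 11.6 in DMSO cells, the high value being again the library that stood apart.

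At 72 h IFI35 was at 11.2, 10.3 and 5.40 in T4 cells, below all DMSO libraries at 14.5, 16.8 and 17.0, with an adjusted p of 0.494. The T4 effect on IFI35 at 72 h minus that at 6 h was −1.54 ± 0.51 (adjusted p = 0.0619 with edgeR and 0.0399 with DESeq2), and −1.17 ± 0.47 without the library that stood apart (adjusted p = 0.13). Without T4 library 1 at 6 h it passed (−1.90 ± 0.48, adjusted p = 0.0255). IFIT1 had 1 to 14 reads per library and IRF7 had 0 to 10. In DMSO cells IFIT1 was at 5.33, 6.71 and 6.55 CPM at 72 h, against 3.14, 3.16 and 0.644 at 6 h, without overlap, and the log2 change of 1.46 ± 0.56 missed the threshold (adjusted p = 0.164). IFI27 had 5 reads in the T4 libraries at 72 h, against 0 in the DMSO libraries, and was not tested. With 3 reads assumed for the DMSO group the ratio would be 1.53-fold. That value leaves out the counting error of the 5 reads, so it is no lower bound and an increase is not established.

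Of the 4 members tested, 1 rose and 0 fell with T4 at 6 h, where 16% of all 8035 genes tested were called, 3.41% as higher and 12.6% as lower. With library totals 84 genes were higher and 1663 lower at 6 h, against 274 and 1011 as reported, and 85 higher and 259 lower at 24 h, against 177 and 244 as reported. At 72 h the split was 8 and 4 with library totals, against 8 and 13 as reported. With edgeR 0 of 4 passed at 24 h (1 at an unadjusted p under 0.05, 5.24% of all genes called, 2.2% higher and 3.04% lower) and 0 of 4 at 72 h (2 at an unadjusted p under 0.05, 0.261% of all genes called, 0.0996% higher and 0.162% lower), and DESeq2 gave 0 at both times. The T4 effect differed from that at 6 h for 0 of 4 members at 24 h (0 at an unadjusted p under 0.05, 9.1% of all genes called, 7.24% higher and 1.85% lower) and for 0 of 4 at 72 h (3 at an unadjusted p under 0.05, 9.38% of all genes called, 7.87% higher and 1.52% lower), and DESeq2 gave 0 and 1. In DMSO cells 1 of 4 rose at 72 h compared with 6 h (4.21% of all genes called, 2.97% higher and 1.23% lower), and 0 of 4 passed at 24 h compared with 6 h (0 at an unadjusted p under 0.05, 0 with DESeq2, 0% of all genes called).

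Of 49 other pathway genes tested, 1 rose and 1 fell at 6 h, where 16% of all genes were called. At 24 h 2 rose and 0 fell (5.24% of all genes called), and at 72 h 0 passed (0.261%). Without the library that stood apart, the pathway genes that rose and fell were 0 and 3 at 6 h, and 6 and 2 at 24 h. IFNAR2, a chain of the type I interferon receptor, averaged 5.16 ± 3.41 CPM in T4 cells at 6 h and 23.7 ± 4.48 in DMSO cells (SD, n = 3 each), a log2 change of −2.46 ± 0.38 (adjusted p = 0.000308). IFITM2 rose by 0.79 ± 0.25 at 6 h (adjusted p = 0.0383), a call lost in 8 of 27 alternatives, among them the fit without the library that stood apart (adjusted p = 0.18) and those without any 1 of the DMSO libraries at 6 h (adjusted p up to 0.124). At 24 h DTX3L, an E3 ubiquitin ligase, rose by 0.69 ± 0.19 (adjusted p = 0.0434) and IKBKE rose by 0.96 ± 0.28 (adjusted p = 0.048). Both calls were lost with median-of-ratios scaling, with library totals and without any 1 of the 6 libraries at 24 h, and the DTX3L call was lost in 18 and the IKBKE call in 23 of 26 alternatives.

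**Figure D4:**
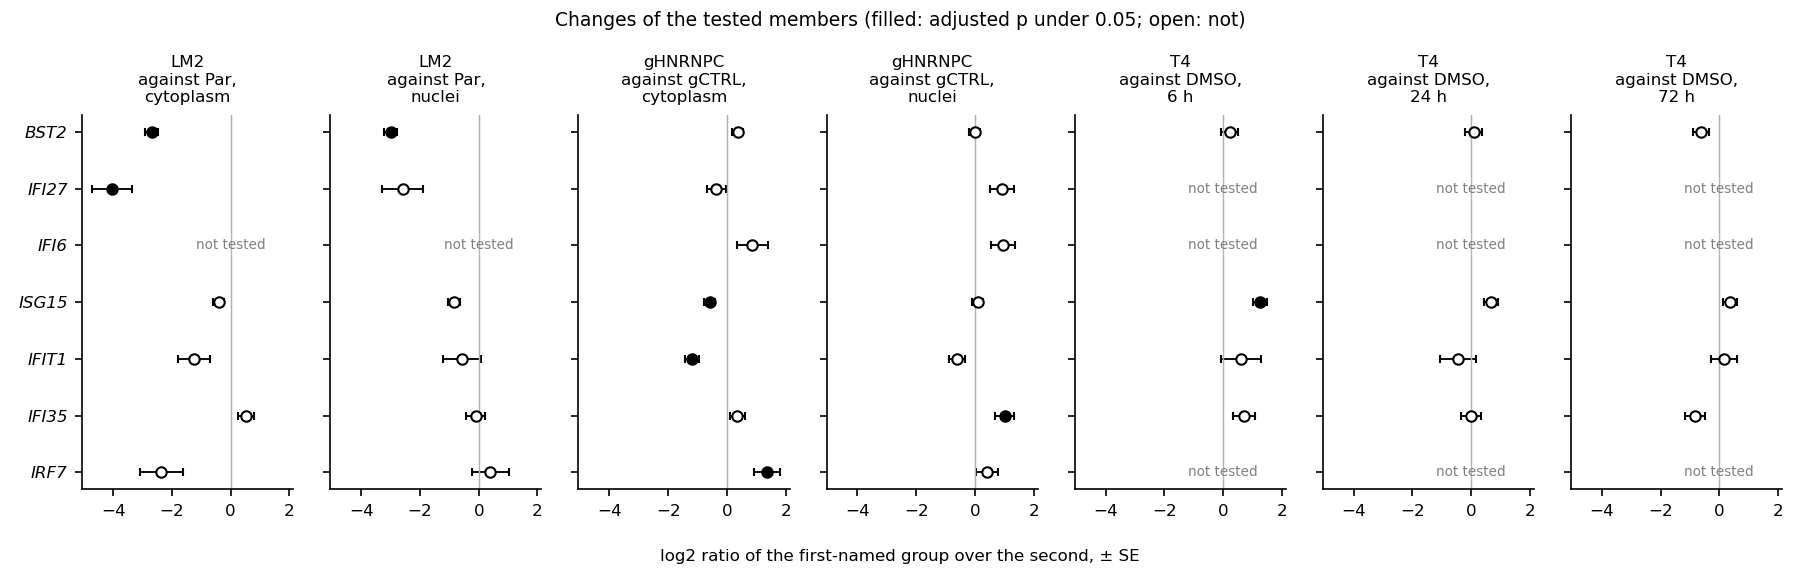
Log2 ratios ± SE of the 7 tested members in the 7 comparisons, each of the first-named group over the second, with filled points past an adjusted p of 0.05. BST2 lies near −3 in LM2 cells and between −0.63 and 0.36 elsewhere, and in gHNRNPC cytoplasm IFIT1 and ISG15 lie below 0 and IRF7 above it.

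The members also differed in where their RNA was found. Levels in each fraction are shares of that fraction's reads, so they do not give amounts per cell. In gCTRL cells all 7 tested members differed between nuclei and cytoplasm, 3 higher and 4 lower in nuclei, where 61.5% of all genes were called (33.9% higher and 27.6% lower). IRF7, IFI6 and BST2 were higher in nuclei, by log2 ratios of 1.85 ± 0.43 (adjusted p = 0.00065), 1.67 ± 0.50 (adjusted p = 0.00537) and 0.75 ± 0.19 (adjusted p = 0.00138). IFI35, IFI27, IFIT1 and ISG15 were lower in nuclei, by log2 ratios of −1.43 ± 0.30, −1.35 ± 0.38, −1.23 ± 0.25 and −1.07 ± 0.18 (adjusted p = 0.000236, 0.00386, 0.000166 and 1.24e-05).

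In gHNRNPC cells 2 members were higher in nuclei (IFI6 and IRF7) and 2 lower (IFI35 and IFIT1), against 54.4% of all genes called (31.2% higher and 23.1% lower). The ratio of ISG15, −0.39 ± 0.17, missed the threshold (adjusted p = 0.0618), as did that of BST2, 0.39 ± 0.19 (adjusted p = 0.0842), and that of IFI27, −0.08 ± 0.37, was smaller than its standard error. The IRF7 call was lost in 14 of 21 alternatives and the IFIT1 call in 7 of 20, and leaving out single libraries raised their adjusted p to as much as 0.201 and 0.279. The IFI35 call was lost without gHNRNPC cytoplasm library 3 (0.0525) or gHNRNPC nuclei library 1 (0.139), and ISG15 passed without gCTRL cytoplasm library 2 (0.0417) or gHNRNPC cytoplasm library 2 (0.0308), and also with DESeq2 (0.0309), median-of-ratios scaling (0.0433), library totals (0.00793), transcript ends only (0.0474) and the same annotation version only (0.0188). In LM2 cells 1 member was higher in nuclei (IRF7, 2.68 ± 0.76, adjusted p = 0.0122) and 2 lower (ISG15, −1.27 ± 0.21, adjusted p = 0.000429, and IFI35, −1.39 ± 0.30, adjusted p = 0.00289), against 54.9% of all genes called (31.4% higher and 23.5% lower). The IRF7 call in LM2 cells was lost without LM2 cytoplasm library 3 or LM2 nuclei library 1 (adjusted p up to 0.0528). In Par cells 0 members were higher and 2 lower (ISG15, −0.85 ± 0.20, adjusted p = 0.00586, and IFI35, −0.78 ± 0.30, adjusted p = 0.0498), against 47.8% of all genes called (25.9% higher and 21.9% lower), and the IFI35 call was lost in 14 of 22 alternatives, 10 of them leaving out 1 library (adjusted p up to 0.164), and that of ISG15 with library totals (0.0723).

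Tested as single entries in place of gene sums, the calls were of the same number. Nearly all reads of each member lay on a single entry, so both tests used nearly the same counts. Their agreement is therefore no separate result. In LM2 compared with Par cells 2 member entries were called in the cytoplasm and 1 in nuclei (10.4% and 1.88% of all entries tested). After the knockdown 3 were called in the cytoplasm and 1 in nuclei (22.5% and 12.5% of entries). With T4 1 was called at 6 h, 0 at 24 h and 0 at 72 h with edgeR (14.5%, 5.02% and 0.154% of entries).

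Across the 14 groups, ISG15 and IFIT1 had the most similar pattern of group means among the 4 members tested in all 3 tables (Pearson's r = 0.943 on the group means of the log2 of CPM plus 1), and BST2 and IFI35 the least similar pattern (r = 0.581). The 14 points share libraries, depth and the scaling within each table, so these correlations are descriptions. They also take in differences between the 3 separately scaled tables. Group means of IFIT1 ran from 1.61 to 2.99 with T4 or DMSO and from 5.08 to 6.93 in the knockdown table. Those of ISG15 ran from 5.83 to 7.17 and from 8.36 to 9.42. How far such differences set the correlations was not tested. Among 7631 genes, those whose group means followed the mean of the 4 members most closely were IFITM2 (r = 0.969), ECH1 (0.968), SHISA4 (0.968), CAST (0.967) and TEAD2 (0.964).

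**Figure D5:**
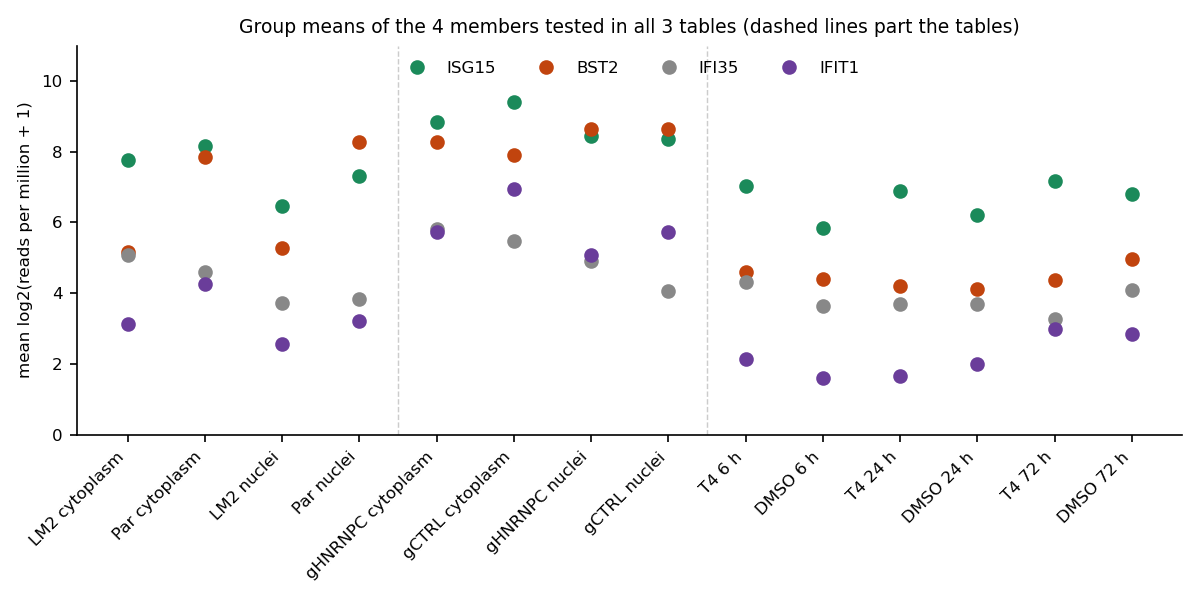
Group means of log2(CPM + 1) for ISG15, BST2, IFI35 and IFIT1 in all 14 groups, scaled separately in the 3 tables that the dashed lines part. Within the first table BST2 is lower in LM2 than in Par groups, and within the second ISG15 and IFIT1 are highest in gCTRL cytoplasm.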

How the data were processed

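QuantSeq REV libraries were analysed from 3 tables of 94924 entries (71604 transcript ends and 23320 positions). Their values are estimated counts, not scaled for depth, as deposited by the authors, who name Salmon 0.14.1 and hg38 per the submitters' processing notes. Transcript ends were matched to GENCODE 29 (66115 matched, 56493 in the same version), positions were given to the transcript listed above them, and counts were rounded per entry and summed per gene over 89065 entries (0.934 to 4.23% of a library's reads were left out). Each table was fitted as a whole with edgeR 4.0.16 (R 4.3.3), with trimmed-mean scaling and filterByExpr, and biological coefficients of variation were 36.7%, 18.8% and 24.8%. The fits were tested on simulated data. Alternatives used DESeq2 1.42.0, other scalings, filters, entries and libraries.

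Same-numbered libraries deviated together (all correlations over 0.1) in 2 of 13 comparisons of 2 groups, LM2 against Par nuclei (0.626, 0.749 and 0.151) and T4 against DMSO at 72 h (0.270, 0.626 and 0.134); there the replicate block changed no member call. Between nuclei and cytoplasm the correlations were −0.242 to 0.247. The members and the pathway lists were chosen with earlier results of these data known. All 9 members are named, and of the lists at most the 6 called genes with the smallest adjusted p per comparison. Some called genes of the lists are counted but not reported here by name.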

Additional observations from a re-analysis of the deposited data

How the results depend on the processing

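Of the alternatives computed for single members, 2000 kept direction and call, 23 gained a call, 63 lost one and 1 reversed. The 2000 include differences never called and fits without a library outside the comparison, so they do not measure the stability of the calls. IFIT1 in gHNRNPC against gCTRL cytoplasm was called in 20 of 20 alternatives. By contrast, IRF7 in gHNRNPC nuclei against cytoplasm was called in 7 of 21. A further 44 changed sign within their standard error, and 6 had no adjusted p from DESeq2. The reversed value is IFI27 in LM2 nuclei against cytoplasm, −0.10 without LM2 nuclei replicate 3 (1.21 as reported, up to 1.97 without 1 library), on 8 reads in all.

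Counts of members called that moved by over 1.5 times were as follows, smaller moves being left out. For LM2 against Par cytoplasm, 2 became 4 with only the 2 groups and 4 without both nuclear libraries numbered 2, and 1 with the same annotation version only, which removes BST2 by construction. For LM2 against Par nuclei, 1 became 2 with DESeq2 and 2 with robust dispersion estimates (an alternative added after seeing the data), and 0 with the same annotation version. For Par nuclei against cytoplasm, 2 became 1 with DESeq2, 1 with library totals, 1 with no filter and 1 with robust estimates. For the knockdown in nuclei, 1 became 0 with library totals, 0 with the replicate block, 0 with only the groups and 0 with transcript ends only. For gHNRNPC nuclei against cytoplasm, 4 became 2 with the replicate block, which lost IRF7 (adjusted p = 0.0544) and IFIT1 (0.0648). With only the groups, T4 at 6 h went to 0 (1 as reported) and T4 at 24 h to 1 (0 as reported). The T4 effect at 72 h minus 6 h gave 1 with DESeq2, and DMSO at 72 h against 6 h gave 0 with no filter. For single entries, LM2 against Par cytoplasm gave 4 with only the groups and 4 without both nuclear libraries numbered 2, LM2 against Par nuclei gave 2 with DESeq2, no filter or robust estimates, the knockdown in nuclei gave 0 with library totals, the replicate block or only the groups, and T4 gave 0 at 6 h and 1 at 24 h with only the groups. The causes were not tested.

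Leaving out 1 library at a time gave 1 to 2 members for LM2 against Par nuclei, 1 to 2 for Par nuclei against cytoplasm, 1 to 4 for the knockdown in the cytoplasm, 0 to 1 for the knockdown in nuclei, 1 to 5 for gHNRNPC nuclei against cytoplasm, 0 to 1 for T4 at 24 h, 0 to 2 for the T4 effect at 72 h minus 6 h, and 0 to 1 for DMSO at 72 h against 6 h. For entries the ranges were 1 to 2 for LM2 against Par nuclei, 1 to 4 and 0 to 1 for the knockdown in cytoplasm and nuclei, and 0 to 1 for T4 at 24 h.

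Where same-numbered libraries share only a number, the replicate block is given above where it moved a count. Depth limits IFI27, IRF7, IFI6 and IRF9, which have few reads per library. The numbers of all genes called, which set the background shares, ranged over the alternatives from 223 to 2489 for LM2 against Par cytoplasm (933 as reported), 28 to 255 for nuclei (189), 1394 to 2327 for the knockdown in cytoplasm (2185), 777 to 1435 in nuclei (1322), 413 to 1911 for T4 at 6 h (1285), 164 to 1968 at 24 h (421), 0 to 103 at 72 h (21), 0 to 615 for DMSO at 24 h against 6 h (0) and 157 to 728 at 72 h against 6 h (338).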
